A study of Homo sapiens with 12 samples.

Results

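Translational efficiency, the amount of ribosome footprint per unit of mRNA, was measured in untreated cells as the ratio of monosome footprints to poly(A) RNA-seq for 14978 pairs of transcript records. The pairs came from 76301 records that could be matched between the 100283 coding rows of the monosome tables and the 93916 coding rows of the RNA-seq tables. Monosome tables carry Ensembl transcript IDs and RNA-seq tables UCSC IDs, so rows were matched by full coding length in file order, as the longest common sequence of lengths. Matched pairs were kept when the coding region spanned at least 100 codons and the mRNA averaged at least 10 CPM, the count scaled to a library total of 1000000, over the DMSO libraries. Records with identical counts in every monosome and RNA-seq library were merged, which left 12747 distinct pairs.

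The monosome group held 2 libraries and the RNA-seq group 2 libraries, all from wild type HEK293T flp-In, a line of human embryonic kidney origin carrying an engineered recombination site, with the cells kept for 2 h with DMSO, the solvent of the drug girolline. The series has 12 libraries, and the others were disome footprints with DMSO and all 3 kinds of library at 1 and 10 µM girolline. Whether the numbered libraries are separate cultures is not in the labels, and the p-values rest on the spread of these libraries alone, which may be technical. The files do not name genes, so the kidney cell label was not checked against markers and transcripts are described by length, level and ID.

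In ribosome profiling, RNase digests mRNA outside the ribosome and the protected fragments are sequenced. Footprints on a coding region divided by its mRNA level give the average ribosome load of that mRNA, which is set by how often ribosomes initiate, how fast they elongate and how they terminate. Upstream open reading frames, structured 5′ leaders and retention of mRNA in the nucleus are known to lower the load, while short housekeeping mRNAs are known for high loads. Poly(A) selection under-samples mRNAs without a poly(A) tail, such as those of replication-dependent histones, and such mRNAs would carry a raised ratio in any experiment of this design.

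Depth was ample for most members but not for the low tail. A member had a median of 462 and 551 counts in the monosome libraries and 671 and 865 in the RNA-seq libraries. None had fewer than 259 counts in an RNA-seq library, a floor that the limit of 10 CPM largely sets. Monosome counts had no such limit. At the low end, 79 members averaged under 1 CPM in monosome libraries, and 3 had at most 3 monosome counts in both libraries together. For these 3 no fold is given. How well monosome and mRNA levels agreed did not depend visibly on how long the unbroken run of matched rows was. Spearman's rho between monosome and mRNA CPM across members was 0.691 for the 1958 pairs that stood alone and 0.692 for the 5776 in runs of at least 20 rows. These are descriptions over transcripts that share libraries, and isoforms among them share reads. Since neighbouring records had like ratios, rho cannot show whether a row was paired with its true partner.

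The ratio varied widely among transcripts and little between libraries. Ratios are given as log2 of monosome over RNA after TMM scaling, where 0 is the centre of all tested transcripts and the median member lay at -0.01. The interquartile range of members was -0.79 to 0.59, and the 5th and 95th percentiles were -2.14 and 1.32, an 11.0-fold range. The low side was the longer one, with the 1st percentile at -3.54 against 2.03 for the 99th. The SD over members was 1.10, whereas the ratios of the pairs numbered 1 and 2 differed with an SD of 0.280. Most of that difference lay in RNA-seq, where the second and first DMSO libraries differed with an SD of 0.224 on the log2 scale, against 0.147 in monosome libraries. All 4 ratios of a monosome over an RNA-seq library lay on the same side of the centre for 89.6% of members.

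Given this precision, most members stood off the centre. By edgeR's quasi-likelihood test at an FDR of 0.05, 4987 of 12747 members had a higher ratio than the centre and 5066 a lower one. These are 39.1% and 39.7% of members, beside 33.0% and 35.4% of all 44766 tested pairs. Ratios more than 2-fold from the centre were tested separately with edgeR's test against a 2-fold bound. It called 875 members higher and 1887 lower, 6.86% and 14.8% of members, beside 9.56% and 13.2% of all tested pairs. Members over 2-fold below the centre thus outnumbered those over 2-fold above it, but at 50 CPM of mRNA or more the order turned, with 232 higher and 192 lower of 2064. DESeq2's Wald test against the same bound called 628 higher and 1249 lower. Neighbouring records can share reads. From each block of 10 consecutive matched rows, the 1 transcript with the highest summed mRNA and monosome CPM was then kept. Of the 4416 members so kept, 246 were higher and 588 lower. That choice uses the monosome level, which also enters the ratio.

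**Figure D1:**
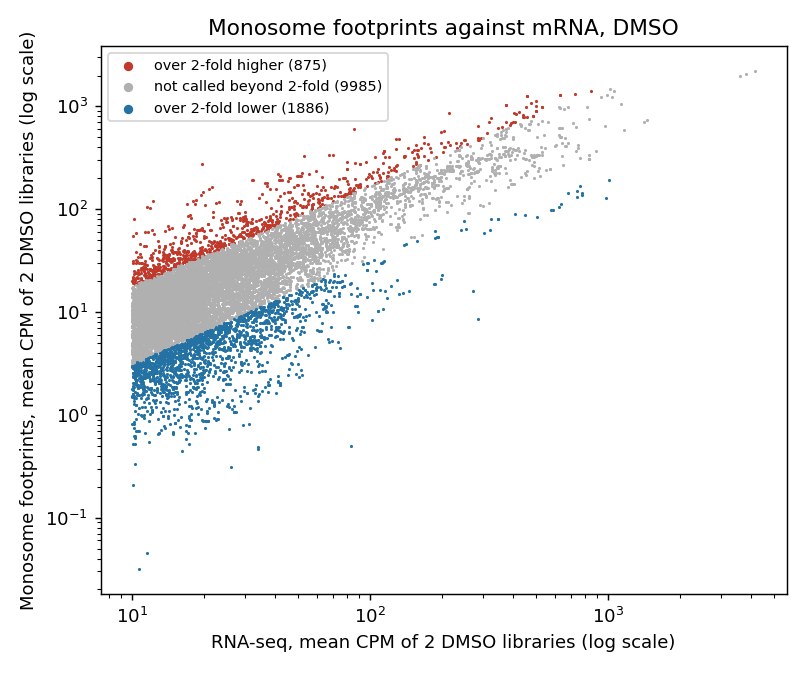
Mean monosome CPM against mean RNA-seq CPM of the 2 DMSO libraries of each kind, both on log scales, with 1 point per distinct member; 1 member with no monosome count cannot be drawn. The 875 members called over 2-fold higher lie along the upper edge, and those called over 2-fold lower form a broader and longer lower fringe.

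Short coding regions had the higher ratios, and the medians fell class by class with length. Members of 100 to under 200 codons had a median log2 ratio of 0.51, those of 200 to under 300 codons 0.26, those of 300 to under 500 codons 0.04, those of 500 to under 1000 codons -0.21 and those of 1000 codons or more -0.44. Each monosome library set against each RNA-seq library alone gave medians of 0.481 to 0.515 at 100 to under 200 codons and -0.466 to -0.390 at 1000 codons or more, so the single-library medians of these classes did not overlap. The spread inside a class was larger than the step between classes. Its interquartile range was -0.15 to 0.99 in the shortest and -1.08 to 0.13 in the longest class. Across all members Spearman's rho between ratio and coding length was -0.297, a description over records that share libraries and reads. The 96 members of 3000 codons or more had a median of -0.89.

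The same order showed in the calls. Among members of 100 to under 200 codons, 389 of 2386 were over 2-fold higher and 209 over 2-fold lower, 16.3% and 8.76% beside 6.86% and 14.8% of all members. Among those of 200 to under 300 codons the counts were 183 and 256 of 1999, and among those of 300 to under 500 codons 159 and 428 of 2726. Among members of 500 to under 1000 codons 115 of 3733 were higher and 626 lower. Among those of 1000 codons or more 29 of 1903 were higher and 368 lower, 1.52% and 19.3%. No test of length classes against each other was run. RNA-seq counts leave out 20 codons and monosome counts 10, which weighs most in short coding regions. Per counted codon the shortest class had a median of 0.46 and the longest -0.39, so the order stayed.

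**Figure D2:**
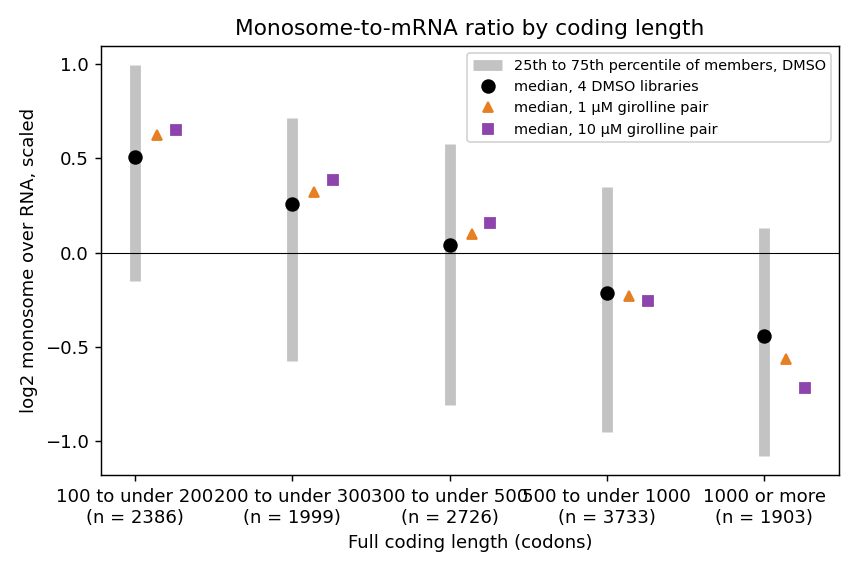
Median log2 monosome over RNA ratio by full coding length in codons, with the interquartile range of members in DMSO as grey bars, and the medians of the 1 and 10 µM girolline pairs (1 library of each kind) beside them. The DMSO medians are 0.51 at the shortest and -0.44 at the longest lengths, and the 10 µM medians span 0.65 to -0.72.

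Girolline libraries took no part in the ranking and gave the same order. Each dose has 1 library of each kind, so these values have no replicate check. At 1 µM the medians were 0.62 in the shortest and -0.56 in the longest class, and at 10 µM 0.65 and -0.72. Spearman's rho with coding length was -0.372 at 1 µM and -0.471 at 10 µM, in size above the -0.297 with DMSO. Single transcripts also kept their place. Across the 12747 members, the ratio with DMSO had a Pearson correlation of 0.979 with that at 1 µM and 0.878 with that at 10 µM, beside 0.968 between the DMSO pairs numbered 1 and 2. Of the 637 members with the highest 5% of ratios in DMSO, 530 were also in the highest 5% at 1 µM and 396 at 10 µM. Of the lowest 5%, 550 and 407 were again in the lowest 5%.

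mRNAs abundant for their length had the higher ratios too, in each length class. mRNA level was taken per counted codon, as CPM per 1000 codons, and each length class was split into tertiles by it. In members of 100 to under 200 codons the median log2 ratio was 0.37 in the low, 0.47 in the middle and 0.64 in the high tertile. In those of 200 to under 300 codons it was 0.01, 0.23 and 0.40. In those of 300 to under 500 codons it was -0.19, -0.002 and 0.29, and in those of 500 to under 1000 codons -0.40, -0.31 and 0.02. In members of 1000 codons or more the medians were -0.62, -0.49 and -0.23. The order low, middle, high held in all 5 length classes. Tertiles also differed in length within each class. From low to high, median lengths were 168, 147 and 142 codons in the shortest and 1521.5, 1292.5 and 1276 codons in the longest class. The part of length in this order was not tested.

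Because the RNA-seq libraries enter both the level and the ratio, the tertiles were also set with the RNA-seq library that the ratio did not use. With levels from RNA-seq DMSO 2 and the ratio from the libraries numbered 1, members of 100 to under 200 codons gave medians of 0.35, 0.48 and 0.68 in the low, middle and high tertile, and those of 1000 codons or more -0.57, -0.48 and -0.21. With levels from RNA-seq DMSO 1 and the ratio from those numbered 2 they gave 0.33, 0.47 and 0.62 in the shortest and -0.61, -0.51 and -0.20 in the longest class. The order held in all 5 length classes both ways. By mRNA CPM, not taken per codon, there was no steady rise with all lengths pooled. From the lowest to the highest quintile of mRNA CPM the median log2 ratios were -0.11, -0.14, -0.05, -0.08 and 0.29. The pooled medians thus stood apart in the highest quintile alone, at 42.4 CPM and more. Within each of the 5 length classes, the median did rise over bands of 10 to 20, 20 to 50 and over 50 CPM. It was 0.40, 0.54 and 0.65 in the shortest and -0.56, -0.49 and -0.21 in the longest class. These bands share the RNA-seq libraries with the ratio. Above 50 CPM of mRNA the median member lay at 0.34, and members of 500 to under 1000 codons, below the centre in general, had a median of 0.33 there. The 11 members over 1000 CPM departed from this, with a median of -0.48, although they come from only 7 blocks of neighbouring rows.

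**Figure D3:**
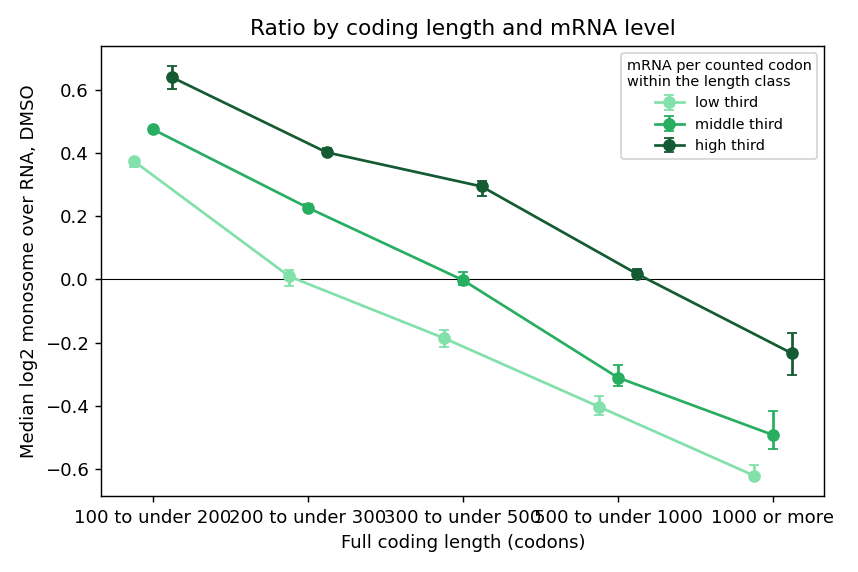
Median log2 monosome over RNA ratio in DMSO by coding length, for the low, middle and high tertile of mRNA per counted codon within each length class; bars span the medians of the 4 single-library ratios. The high tertile lies above the low tertile in every class, at 0.64 against 0.37 in the shortest and -0.23 against -0.62 in the longest.

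The highest ratio belonged to the pair ENST00000380244.7 and uc002ebh.4, with a coding region of 526 codons. It had 272 and 278 CPM in monosome libraries, against 21.7 and 17.6 CPM in RNA-seq libraries. Both monosome values lay more than 10-fold above both RNA-seq values, and the fitted log2 ratio was 4.22 (SE 0.11, n = 2 libraries a kind; adjusted p = 5.65e-16 in the edgeR quasi-likelihood test). The ratio was 4.42 at 1 µM and 3.51 at 10 µM. It was matched in a run of only 2 rows. The next pair, ENST00000615966.1 and uc063mgc.1, of 127 codons, had 104 and 106 CPM in monosome libraries, against 11.2 and 11.99 CPM in RNA-seq libraries. Its log2 ratio was 3.59 (SE 0.10, n = 2 libraries a kind; adjusted p = 2.85e-15 in the same edgeR test). It had 3.88 at 1 µM and 2.16 at 10 µM. The difference between these 2 high ratios was not tested.

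The lowest ratio by the naming rule, which asks for at least 1 CPM in each monosome library, belonged to the pair ENST00000404241.6 and uc021wpz.2, of 352 codons. This record stands for 3 with identical counts. It had 8.68 and 8.26 CPM in monosome libraries, against 278 and 290 CPM in RNA-seq libraries. The mRNA was thus abundant and its footprints few in both libraries. The log2 ratio was -4.66 (SE 0.10, n = 2 libraries a kind; adjusted p = 1.34e-16 in the edgeR quasi-likelihood test), and it was -4.51 at 1 µM and -4.61 at 10 µM. The pair ENST00000578176.5 and uc060lvz.1, of 247 codons, came next. It had 1.33 and 1.00 CPM in monosome libraries, against 34.7 and 28.2 CPM in RNA-seq libraries, a log2 ratio of -4.35 (SE 0.18, n = 2 libraries a kind; adjusted p = 2.16e-13 in the same edgeR test). Its monosome values rest on 39 and 35 counts, and its ratio was -3.82 at 1 µM and -3.27 at 10 µM. The difference between these 2 low ratios was not tested.

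By the same rule, the 12 highest members had log2 ratios of 2.83 to 4.22 and the 12 lowest -4.66 to -3.88. Each passed edgeR's test against a 2-fold bound at an FDR of 0.05. They were picked as extremes among called members of the same libraries, so these calls add no support. Some lay close together: low members of 3844, 1214 and 868 codons at matched rows 4153, 4066 and 4114, and of 659 and 664 codons at 36089 and 36152. The 2 high members of 127 codons lay at rows 21713 and 21749. Such members may not be independent, which was not tested. The high ones were short in the main, with 7 under 200 codons and 1 of over 1000 codons. Among the low ones 1 was under 200 codons and 3 were of 1000 codons or more. mRNA levels were 10.1 to 86.0 CPM in the high set and 23.1 to 284 CPM in the low one. Of the high set, 2 were matched alone, outside any run. Every one of the 24 stayed on its side of the centre at both doses of girolline. The high set spanned 2.57 to 4.42 at 1 µM and 1.63 to 4.19 at 10 µM, and the low set -4.96 to -3.66 and -4.98 to -2.26. The largest shifts toward the centre at 10 µM were in the 2 high members of 127 codons, which had 2.16 and 1.63 there, and in low members of 187, 247 and 266 codons.

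**Figure D4:**
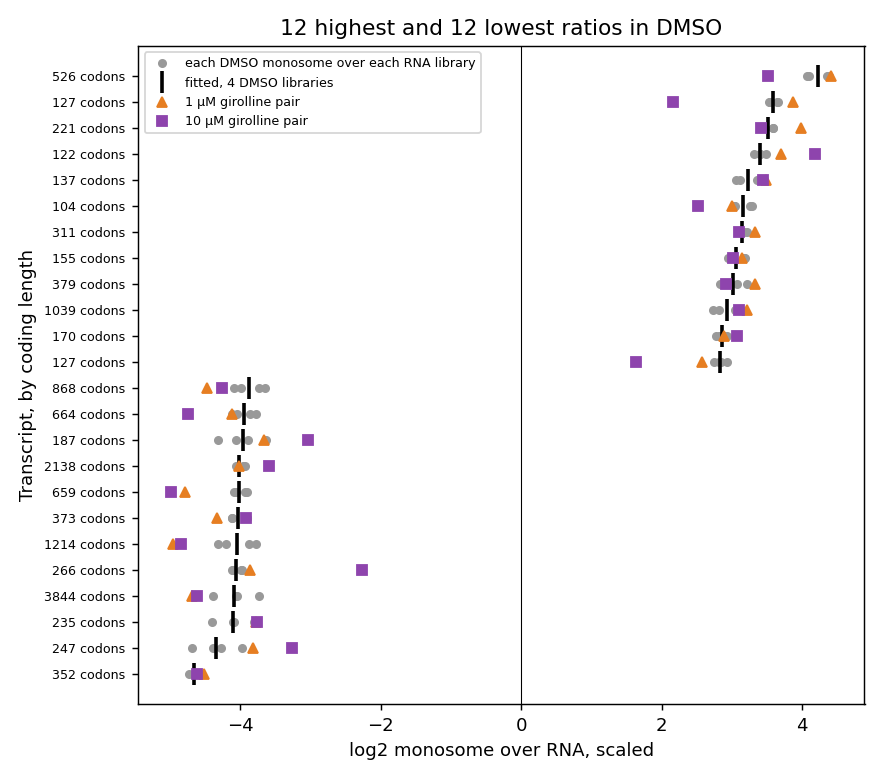
Log2 monosome over RNA ratio of the 12 highest and 12 lowest members in DMSO, labelled by coding length in codons. Grey points are the 4 single-library ratios, black bars the fitted values, and triangles and squares the 1 and 10 µM girolline pairs; all 24 stay on the same side of 0 at both doses.

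Some coding lengths carried high ratios as a group. Among the 611 exact lengths with members in at least 8 blocks of rows, the median of the length medians was 0.06. The highest medians were 1.40 at 104 codons, 1.19 at 131 codons, 1.16 at 127 codons, 1.01 at 164 codons and 0.96 at 137 codons, with 28, 33, 28, 24 and 35 members. Each of these lengths also held members below the centre. The lengths were picked for their ratios and get no test. Some of their members lay close together in the tables. Within 200 consecutive matched rows lay 30 of the 113 members of 104, 127, 131 or 164 codons, with a median of 1.71, while the other 83, in 74 blocks, had 0.95. Of the 35 members of 137 codons, at most 4 lay within any 200 rows. The 16 members of other lengths in that stretch had a median of 1.49. At 10 µM the 28 members of 127 codons had a median of 0.34, against 1.16 with DMSO, and those of 104 codons 1.22, against 1.40. Reads of near-identical gene copies may be split or dropped in counting, and the files do not say how, so the values of such families are uncertain.

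**Figure D5:**
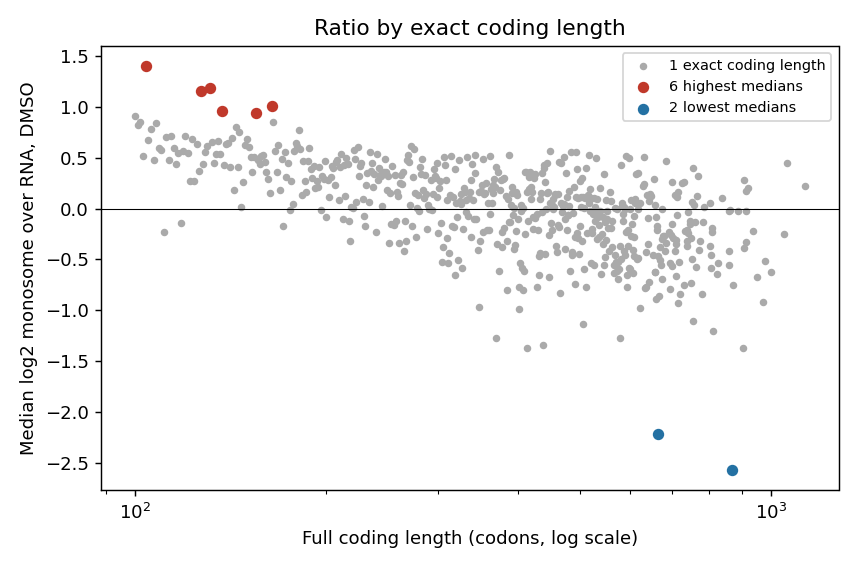
Median log2 monosome over RNA ratio in DMSO for each exact coding length (log axis, codons) with members in at least 8 blocks of rows. The 6 highest medians, at 104 to 164 codons, reach 0.94 to 1.40, and 2 lengths, 664 and 868 codons, lie far below the rest at -2.22 and -2.57.

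At the other end, the lengths of 868 and 664 codons had medians of -2.57 and -2.22, with 10 members each. In both, disome levels exceeded monosome levels. Median disome levels were 38.2 CPM at 868 codons and 15.3 CPM at 664 codons, beside monosome levels of 3.58 and 4.44 CPM. The same was seen on other members of the low tail. Disome CPM was at least 4 times monosome CPM in 329 members, with a median log2 ratio of -2.34, and 178 of these were among the 637 lowest members and 4 among the 637 highest. In 115 members the disome libraries even held more counts than the deeper monosome libraries, and 100 of these were among the 637 lowest. Of the 12 lowest named members, 7 had at least 4 times more disome than monosome CPM, the 247-codon one included. A low monosome level both lowers the ratio and raises disomes over monosomes. The overlap of these sets with the low tail is therefore in part built into the choice. The disome tables use the UCSC records and the monosome tables the Ensembl records, and the part that counting or matching of rows had in these values was not tested. Without the 329, 870 members were over 2-fold higher and 1630 lower, in place of 875 and 1887.

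Disomes per monosome were highest where the ratio was lowest. From the lowest to the highest quintile of the ratio, the median log2 of disome over monosome CPM was 0.44, -0.04, -0.13, -0.21 and -0.21, so that most of the span lay between the lowest quintile and the next and none between the upper pair. Monosome libraries enter both measures, which by itself ties a low ratio to a high value here. By length it was -0.72 at 100 to under 200 codons and 0.33 at 1000 codons or more.

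Neighbouring records had like ratios. Within blocks of 10 matched rows the SD was 0.62, against 1.10 over all members, and the median range within a block was 0.35. In 301 of 3229 blocks with at least 2 members the range exceeded 2 on the log2 scale, so records next to each other in the tables could differ by more than 4-fold. Neighbours can be isoforms that share reads or separate genes, which the files do not tell apart.

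The limits of the rule did not fall at a break in the data. The 83 members within 5 codons above the length limit had a median of 0.91, and the 68 pairs within 5 codons below it 0.83. The 976 members less than 1 CPM above the mRNA limit had a median of -0.17, and the 1116 pairs less than 1 CPM below it -0.12.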

How the data were processed

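The authors deposited raw read counts per transcript, 1 table per library, not normalized. The submitters' processing notes name the build hg38 and, without roles, the tools CASAVA 1.8 and STAR 2.7.0a. The counting tool, annotation and handling of reads that match several places are not given in the sources used here. Per the labels' protocols, footprints came from RNase I digestion and ribosome pelleting, and RNA-seq from poly(A) selection with a stranded kit.

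Coding length was column 2 plus 20 in RNA-seq and plus 10 in monosome tables, taken as codons. Rows without a coding length held no counts. CPM used the total count per library, 29278822 and 34873134 in monosome and 32586618 and 42194871 in RNA-seq DMSO libraries. Replicates differed by more than sampling noise, with a chi-square per degree of freedom of 2.37 in monosome and 14.2 in RNA-seq pairs over members. Counts were tested with edgeR 4.0.16 (TMM, filterByExpr, quasi-likelihood test, and glmTreat at 2-fold) in R 4.3.3, on all 44766 pairs that passed the filter, with 2 residual degrees of freedom and Benjamini-Hochberg adjustment. SEs are the log2 ratio over the root of the F statistic. Ratios at 1 and 10 µM add 0.5 to each count and use TMM factors over 8 libraries, and disome over monosome adds 0.1 CPM to each. The fit was tested on simulated counts with known changes. Named transcripts are the 12 highest and 12 lowest called members with all 4 single-library ratios on 1 side, at least 1 CPM in each monosome library, and over 10 matched rows apart. Since no table used here pairs the IDs with genes, 2 IDs per direction are printed, and the planned gene lists were not analysed. Members, lists and rules were chosen with earlier results of these data known; tertiles of mRNA level, exact lengths and disome comparisons were set after the ratios had been seen. DESeq2 1.42.0 was an alternative.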

Additional observations from a re-analysis of the deposited data

How the results depend on the processing

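Leaving out 1 library gave 4068 to 5529 members above and 4197 to 5471 below the centre, and 599 to 1119 over 2-fold higher and 1449 to 2118 over 2-fold lower. The fits without a monosome library gave the low ends. With the lone library of a kind, its spread was taken to be that of the other kind. The replicate block changed little, with 4908 above and 4981 below the centre and 832 and 1850 beyond 2-fold. The libraries share only a number, and same-numbered libraries deviated from their group means with a correlation of -0.0963 across members. DESeq2 called 628 over 2-fold higher in place of 875 and 1249 lower in place of 1887. Fewer or more transcripts enter under 4 settings. With 1 transcript per block 1759 lay above and 1728 below the centre, with 246 and 588 beyond 2-fold. In aligned runs of at least 20 rows these were 1962, 1931, 323 and 754 of 4838. At an mRNA mean of at least 1 CPM they were 10136, 13166, 1944 and 4855 of 32857, and at 50 CPM 1167, 533, 232 and 192 of 2064. At 50 CPM 68.6% of calls, and 54.7% of those beyond 2-fold, were higher, against 49.6% and 31.7% at 10 CPM.

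Length medians, from shortest to longest class, were 0.46, 0.26, 0.062, -0.17 and -0.39 per counted codon, 0.53, 0.28, 0.084, -0.12 and -0.46 with 1 transcript per block, and 0.54, 0.31, 0.05, -0.26 and -0.53 in runs of at least 20 rows. At 50 CPM of mRNA they were 0.65, 0.42, 0.38, 0.33 and -0.21, so the class of 500 to under 1000 codons changed sign. Without members of disome CPM at least 4 times monosome CPM, a setting chosen after seeing the data, they were 0.51, 0.28, 0.0704, -0.17 and -0.42. Single-library ratios gave 0.481 to 0.515, 0.245 to 0.265, 0.0139 to 0.0644, -0.230 to -0.192 and -0.466 to -0.390. The order of the 5 classes held in each of these settings. The SD between numbered pairs was 0.217 at 50 CPM, 0.256 with the numbers crossed and 0.280 in the main analysis. All 24 named transcripts kept their call and direction in the 9 settings run for them. Depth limits the low tail, where named members averaged as little as 1.07 monosome CPM.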
